A study of Mus musculus with 2 samples.

Results

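The mir-99/100 and mir-125 family of the mouse is made of 6 microRNA genes, which were found among the 1973 counted genes by matching Ensembl identifiers to the GENCODE M21 symbols Mir99a, Mir99b, Mir100, Mir125a, Mir125b-1 and Mir125b-2. All 6 were counted. The 3 mir-99/100 genes and the 3 mir-125 genes lie in pairs in 3 clusters, each of which also holds a let-7 gene. The data are small RNA libraries (RNA below 30 nt) of midbrain from healthy mouse embryos of strain B6NCrl at embryonic day 10.5. There is 1 group with 2 biological replicates, made from pooled embryos of both sexes, 69 in replicate 1 and 51 in replicate 2. No allele or treatment is given and there is no second tissue or stage, so the measurements are levels, ratios between genes within a library, and differences between the pools.

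MicroRNAs are cut from hairpin precursors into a 5p and a 3p arm, and the arm that is kept guides silencing of messenger RNAs that match its seed, bases 2 to 8. The mir-125 genes are the vertebrate relatives of lin-4 of the nematode, which together with let-7 times development. Members of mir-125 are known to repress Lin28, members of mir-99/100 to repress Mtor, and LIN28 protein is known to hold back the maturation of let-7 while the other microRNAs of the same transcripts can mature. In vertebrate nervous tissue the expression of let-7 and mir-125 is known to rise as neural progenitors differentiate.

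The 5p arms show why the family is read as a pair of seed groups. Sequences are from RefSeq on GRCm38.p6 and are written 5′ to 3′ with the seed in capitals.
miR-99a-5p: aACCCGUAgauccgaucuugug
miR-100-5p: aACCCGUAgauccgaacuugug
miR-99b-5p: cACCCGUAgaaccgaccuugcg
miR-125a-5p: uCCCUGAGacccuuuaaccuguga
miR-125b-5p: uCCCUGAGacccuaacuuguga
The 3 arms of mir-99/100 shared the seed ACCCGUA, and no other of the 1738 mature arms in the RefSeq table had it. Counted from the 5′ end, miR-99a-5p and miR-100-5p differed by 1 base, U16A, with the miR-99a-5p base first. Between miR-99a-5p and miR-99b-5p there were 4 differences, A1C, U11A, U16C and U21C, none of them in the seed. The seed CCCUGAG stood in 6 genes of the table, the 3 mir-125 genes, Mir351, Mir6367 and Mir6394.

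The 5p arm of mir-125b is the same 22 bases at both of its genes, whereas each other 5p arm and each 3p arm of the family was found at 1 locus in the table and inside 1 annotated M21 microRNA hairpin. The hairpins of the 2 genes (GENCODE M21) shared a run of 24 bases that covers the 5p arm. Only sequence outside the run, such as the 3p arm, can place a read at 1 of the genes. The 3p arm of Mir125b-1 is shown as an example.
miR-125b-1-3p: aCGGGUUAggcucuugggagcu
Reads that map to several loci stand in a separate row of the deposited files and are in no gene count. A read of the exact 5p arm of mir-125b, with no bases beyond it, matches both loci, so the counts of Mir125b-1 and Mir125b-2 are read here as lower limits. For each gene alone this takes it that no read of 1 of them was placed at the other, which was not tested. The multiply mapped row held 2412710 reads in replicate 1 and 2775444 in replicate 2, against 8237 and 6584 reads counted for the 2 genes together. The longest run that any of the other 4 genes shared with another M21 microRNA gene was 16 bases, between Mir99a and Mir100, and Mir125a shared at most 14.

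The 3 clusters have the same gene order, with the mir-99/100 gene first, the let-7 gene next and the mir-125 gene last on the plus strand (mm10, GENCODE M21). On chromosome 16 Mir99a (ENSMUSG00000065530, chr16:77598936-77599000) is followed after 0.721 kb by Mirlet7c-1 and after 47.3 kb by Mir125b-2 (ENSMUSG00000065472). All 3 lie in an intron of the long noncoding RNA gene Mir99ahg. Mir99a and Mirlet7c-1 also lie in an intron of the protein-coding gene Gm11146 on the other strand. On chromosome 9 Mir100 (ENSMUSG00000093011, chr9:41531425-41531504), Mirlet7a-2 at 5.29 kb and Mir125b-1 (ENSMUSG00000093354, chr9:41581926-41582002) at 50.5 kb lie in an intron of the noncoding gene 3110039I08Rik. These 3 genes also lie in an intron of the noncoding gene Gm49317 on the same strand. Mir125b-1 also lies in an exon of the sense-intronic gene Gm28119, and Mir100 in an exon of Gm48742 on the other strand. The cluster on chromosome 17 is short. Mir99b (ENSMUSG00000065396, chr17:17830188-17830257) and Mirlet7e, at 0.164 kb, lie in an intron of the protein-coding gene Spaca6, and Mir125a (ENSMUSG00000065479, chr17:17830812-17830879), at 0.624 kb, overlaps an exon of a Spaca6 transcript.

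**Figure D1:**
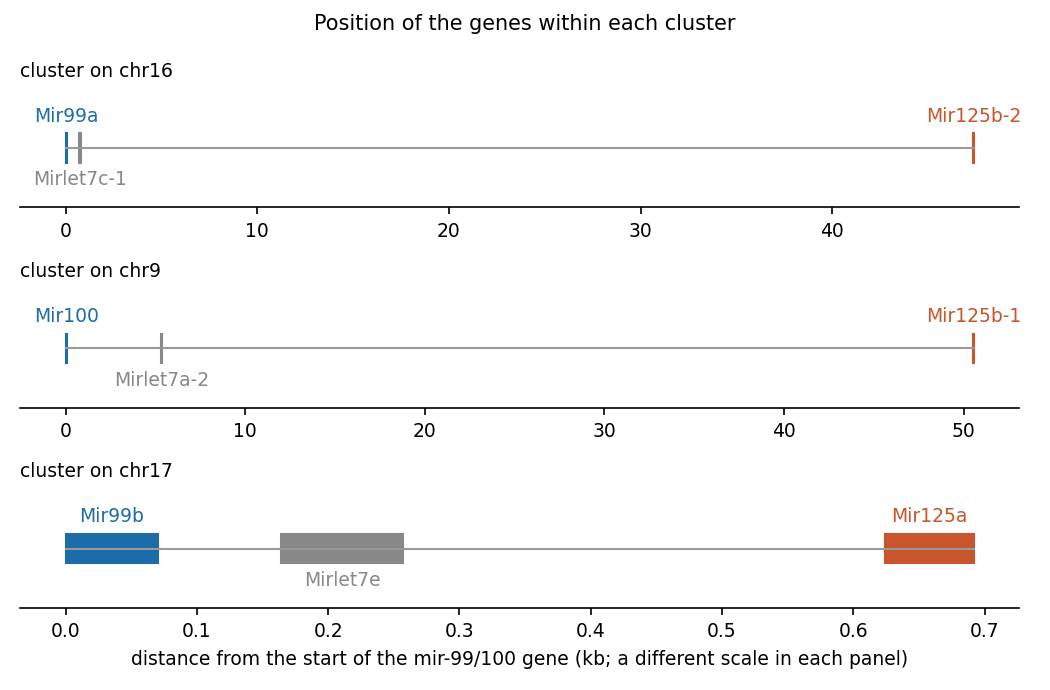
Position of the 3 genes of each cluster, drawn to scale as boxes along the distance from the start of the mir-99/100 gene (kb, a different scale in each panel). Mir125b-2 and Mir125b-1 lie 47.3 and 50.5 kb from the first gene, and Mir125a 0.624 kb.

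Replicate 1 held 3297835 gene-assigned reads and replicate 2 held 3682410, which is 42.2% and 39.1% of all reads of the libraries. Multiply mapped reads made up 30.9% and 29.5%. As the gene counts cover microRNA genes only, the tissue label was set beside microRNA markers. The neural progenitor list held 2.96% and 3.10% of the gene-assigned reads in the 2 replicates and the neuron list 0.155% and 0.0900%. Most of the progenitor share came from Mir92b (70064 and 93358 reads), followed by Mir181c (27136 and 20703 reads). Mir9-3 had 452 and 246 reads, Mir9-2 had 3 and 4, and Mir9-1 was not counted. The other lists ranged from liver (Mir122) at 0.000576% and 0.00152%, and muscle and heart at 0.00497% and 0.00557%, to endothelium (Mir126a) at 2.64% and 3.08%. The endothelium share was close to that of the progenitor list, so these shares cannot tell which tissue was taken. Of the 6 counted muscle and heart markers 3 had 0 reads, Mir1a-1, Mir133a-1 and Mir133a-2. Several markers, these among them, are copies of 1 microRNA, and reads that map to several loci are in no gene count. How many loci hold each marker's arms was not tested, so a low or 0 count does not show absence. Values below are CPM, reads per 1000000 gene-assigned reads. A small RNA read spans a whole mature microRNA, so counts were not divided by gene length, and how well each sequence was captured was not measured.

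The 3 mir-99/100 genes were among the 10 most abundant of all counted microRNA genes, and the 3 mir-125 genes were far below them. Mir99a, whose microRNA is known to repress Mtor, had 99137 CPM in replicate 1 and 62944 CPM in replicate 2, a mean of 81041 ± 25592 (SD, n = 2) and rank 2. Mir100, which has the same seed, had 34642 and 24857 CPM (29749 ± 6919, rank 6). Mir99b had 25416 and 21177 CPM (23296 ± 2997, rank 10). Replicate 1 was the higher library for each of these genes. The levels of Mir99a did not overlap with those of Mir100, and those of Mir100 and Mir99b did, so the order of the latter pair is within their spread although Mir100 was above Mir99b in both libraries, by 1.36 and 1.17 times. The number of mismatches allowed in mapping is not known, so how reads that fit both miR-99a-5p and miR-100-5p but for 1 base were divided between Mir99a and Mir100 was not tested.

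The mir-125 genes stood lower in the order. Mir125a, the gene of the chromosome 17 cluster, had 2943 and 2027 CPM (2485 ± 648, SD, n = 2) and ranked 67. Mir125b-1 had 1602 and 1199 CPM (1400 ± 285, rank 94). Mir125b-2 had 896 and 589 CPM (742 ± 217, rank 121). The ranges of these 3 genes did not overlap, and the lower value of Mir99b was 7.19 times the higher value of Mir125a. For the mir-125b genes the order is that of the reads that could be placed at 1 locus, and not of the transcripts' output. All reads of the 6 genes lay in the second count column, taken as the genes' own strand, and 0 in the third.

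**Figure D2:**
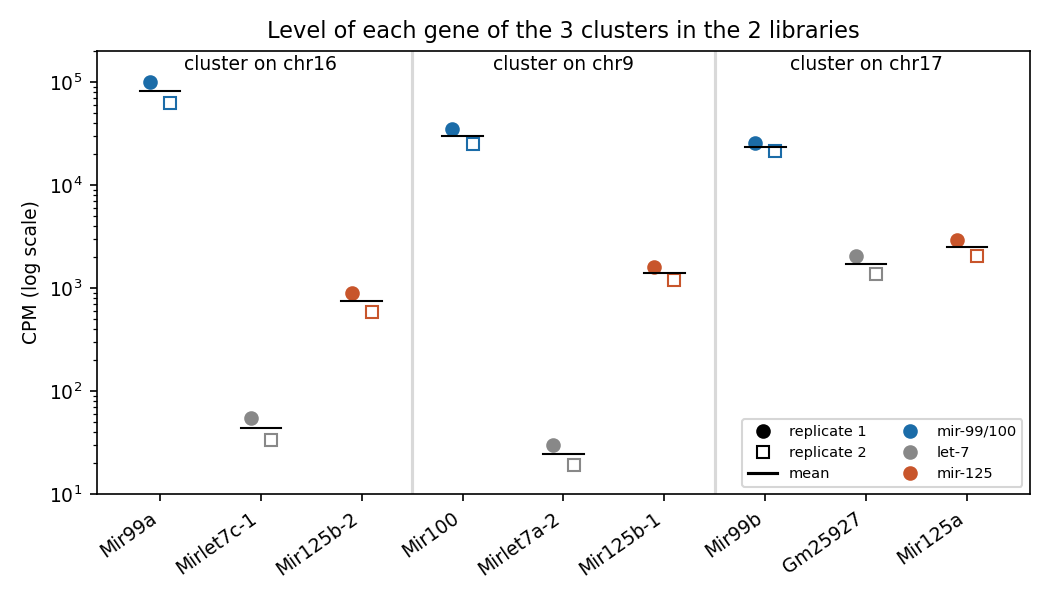
Level in CPM (log axis) of the mir-99/100, let-7 and mir-125 gene of each cluster in replicate 1 (filled circles) and replicate 2 (open squares), with bars at the mean. In all 3 clusters the mir-99/100 gene is the highest, and replicate 2 is below replicate 1 for all 9 genes.

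The 6 genes together held 16.5% of the gene-assigned reads in replicate 1 (95% Wilson interval 16.4 to 16.5%) and 11.3% in replicate 2 (11.2 to 11.3%). These and all later intervals hold counting error alone, with reads taken as independent, and no variation between pools. Several reads can stem from 1 molecule, so the intervals can be too narrow even for counting error. The mir-99/100 genes held 15.9% and 10.9%, and the mir-125 genes 0.544% and 0.381%. Within the family Mir99a took 60.2% of the reads in replicate 1 and 55.8% in replicate 2, Mir100 21.0% and 22.0%, and Mir99b 15.4% and 18.8%. Mir125a took 1.79% and 1.80%, Mir125b-1 0.973% and 1.06%, and Mir125b-2 0.544% and 0.522%. Among gene-assigned reads Mir99a thus led the family in both pools. Its share was smaller in replicate 2, where Mir99b and Mir100 took larger shares, each beyond the counting intervals. Reads that match both mir-125b loci are in none of these counts, so the shares are of placed reads only. How those reads would change the shares was not tested.

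Within a cluster, the mir-99/100 gene had more reads than the mir-125 gene in each library, and by how much differed from cluster to cluster. On chromosome 16, Mir99a had 326938 reads and Mir125b-2 2954 in replicate 1, a ratio of 111 (95% counting interval 107 to 115). In replicate 2 they had 231787 and 2169 reads, a ratio of 107 (102 to 111). This was the highest ratio of the 3 clusters. On chromosome 9, Mir100 had 114243 reads against 5283 for Mir125b-1 in replicate 1, a ratio of 21.6 (21.0 to 22.2), and 91533 against 4415 in replicate 2, a ratio of 20.7 (20.1 to 21.4). On chromosome 17, Mir99b had 83816 reads against 9707 for Mir125a in replicate 1, a ratio of 8.63 (8.45 to 8.82), and 77984 against 7464 in replicate 2, a ratio of 10.4 (10.2 to 10.7). The last is the one cluster in which every mature arm of both genes was found at a single locus. Among the 3 clusters it had the lowest ratio.

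On the log2 scale the ratios were 6.76 ± 0.0358 on chromosome 16, 4.40 ± 0.0430 on chromosome 9 and 3.25 ± 0.194 on chromosome 17 (mean ± SD, n = 2). The ratio on chromosome 16 was 5.12 and 5.15 times that on chromosome 9 in the 2 libraries, and the ratio on chromosome 9 was 2.50 and 1.98 times that on chromosome 17. These differences between clusters were larger than the spread between the replicates. With 2 libraries an exact sign-flip test cannot give a p below 0.5, so none was used. The 2 higher ratios belong to the clusters with a mir-125b gene, where reads that lie within the shared run match both loci and only reads that reach beyond it can be placed. The part of this in the ratios was not tested.

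The row counted for let-7 had the fewest reads of the 3 in each cluster, though on 2 of them its count is a lower limit and on chromosome 17 it is an antisense row. Mirlet7c-1 had 182 and 124 reads, which is 0.0551% and 0.0530% of the reads of the chromosome 16 cluster. Mirlet7a-2 had 100 and 71 reads, 0.0836% and 0.0739% of those of the chromosome 9 cluster. Both share a run of 23 bases with another let-7 gene, so the limit described for mir-125b holds for them too. Mirlet7e has no count of its own, and the counted row Gm25927 lies across it on the other strand, with both arms of Mirlet7e found in its reverse complement. Gm25927 had 6732 and 5064 reads, all in the third count column, which are 6.71% and 5.59% of the reads of the chromosome 17 cluster. Read as let-7e, these reads put the ratio of Mir99b to its let-7 partner at 12.4 and 15.4, against 1791 and 1862 for Mir99a and 1137 and 1280 for Mir100. Mir125a had 1.44 and 1.47 times the reads of Gm25927, so the mir-125 and let-7 genes of that cluster were close in level.

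**Figure D3:**
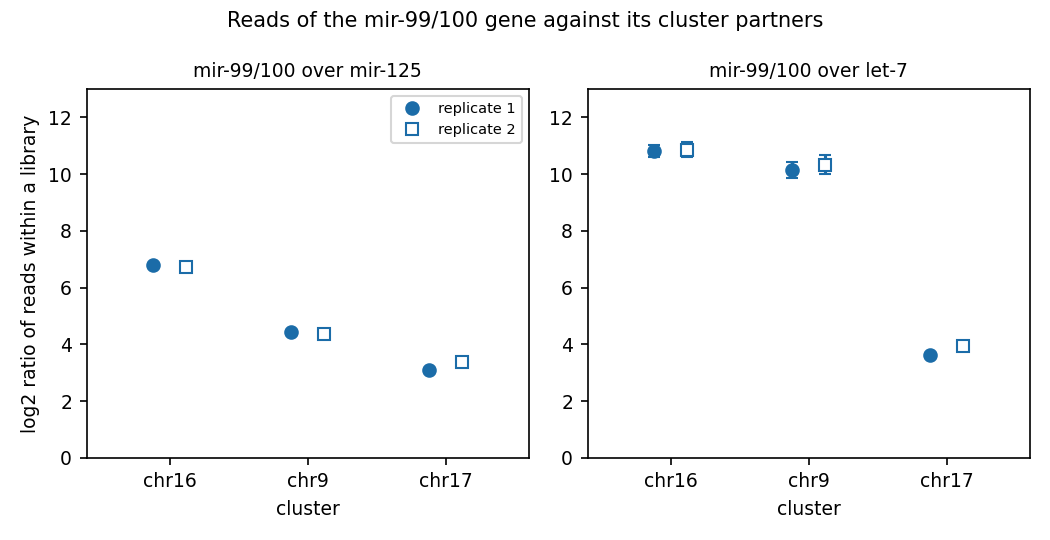
Log2 ratio of the reads of the mir-99/100 gene to the mir-125 gene (left) and to the let-7 gene (right, Gm25927 on chromosome 17) of the same cluster, within each library, with 95% counting intervals (smaller than the symbol where not seen). The ratio to mir-125 falls from 6.79 and 6.74 on chromosome 16 to 3.11 and 3.39 on chromosome 17.

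All 6 genes were lower in replicate 2 than in replicate 1 once the libraries were scaled by TMM. The log2 ratio of replicate 2 over replicate 1 was -0.65 for Mir99a, -0.47 for Mir100 and -0.26 for Mir99b, with counting errors (SE) of 0.0039, 0.0064 and 0.0072. It was -0.53 for Mir125a, -0.41 for Mir125b-1 and -0.60 for Mir125b-2, with SE 0.022, 0.029 and 0.041. The median of the 6 was -0.50, against -0.02 for all 485 genes tested. An exact binomial test per gene (two-sided, Benjamini-Hochberg over all 485 genes) called each of the 6 lower, with the largest adjusted p at 4.44e-44 for Mir125b-1. The test compares the reads of 2 libraries and not conditions, and it called 49.7% of all genes, 26.6% lower and 23.1% higher. Of the 107 genes that reached a mean CPM of 1000, 5 of the members included, 44.9% were called lower. A call was thus common at this depth. Of these 107 genes 7 had a lower log2 ratio than Mir99a and 23 had a lower one than Mir99b.

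In CPM the family fell by 51842 from replicate 1 to replicate 2, and Mir99a made up 69.8% of that difference, Mir100 18.9% and Mir99b 8.17%. The 3 mir-125 genes made up 1.77% (Mir125a), 0.777% (Mir125b-1) and 0.592% (Mir125b-2). For the mir-125b genes these parts are of placed reads only, as reads that match both loci are in no gene count. Over the same pools, the let-7 list had 10 counted genes of 12, and the test called all 10 lower (median log2 ratio -0.72). Mirlet7c-1 and Mirlet7c-2 hold the same 5p arm, and Mirlet7a-2 shares a run of 23 bases with Mirlet7a-1. The counts of these rows are lower limits. Beside these and the following calls, 26.6% of all genes tested were called lower and 23.1% higher. The 5 mesenchyme markers were called lower (1.27% and 1.02% of the reads), and so were 2 of 5 tested neuron markers, Mir137 and Mir124a-2, while Mir126a of endothelium and 5 of 7 epithelium markers (0.340% and 0.409% for all 7) were called higher, the other 2, Mir203 and Mir200a, being called lower. Of the 3 neural progenitor markers tested, Mir181c and Mir9-3 were called lower and Mir92b higher. Of the 3 erythroid markers, Mir144 and Mir486 were called higher and Mir451a lower. Among the 3 leukocyte markers tested only Mir142b was called, as higher. Mir122 of liver, with 19 and 56 reads, was called higher, and none of the 3 muscle and heart markers tested was called. The part of these differences in tissue make-up, and of the difference in multiply mapped reads, in the values of the family was not tested. In bulk tissue, fewer cells of a type and less RNA per cell cannot be told apart.

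The genes of 1 cluster differed between the pools by nearly the same factor on chromosomes 16 and 9, and not on chromosome 17. The log2 ratio of Mir99a to Mir125b-2 within a library was lower by 0.0507 in replicate 2, with a counting interval of -0.131 to 0.0297 that includes 0. For Mir100 and Mir125b-1 it was lower by 0.0608 (-0.120 to -0.00182). For Mir99b and Mir125a it was higher by 0.275 (0.229 to 0.321), which is a factor of 1.21. These values do not depend on how the libraries are scaled. Mir99b also stood 0.307 (0.252 to 0.361) higher against Gm25927 in replicate 2, whereas Mir125a and Gm25927 kept their ratio within counting error (0.0317, -0.0366 to 0.0999). Hence on chromosome 17 the mir-125 and let-7 rows moved alike and Mir99b apart from them. For scale, in 82 pairs of adjacent genes without a family member (same strand, starts within 60 kb, mean CPM 100 or more) the log2 ratios differed by a median of 0.147 and by 0.275 or more in 19 pairs (23.2%), so a gap of this size between neighbours was not rare in these libraries.

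**Figure D4:**
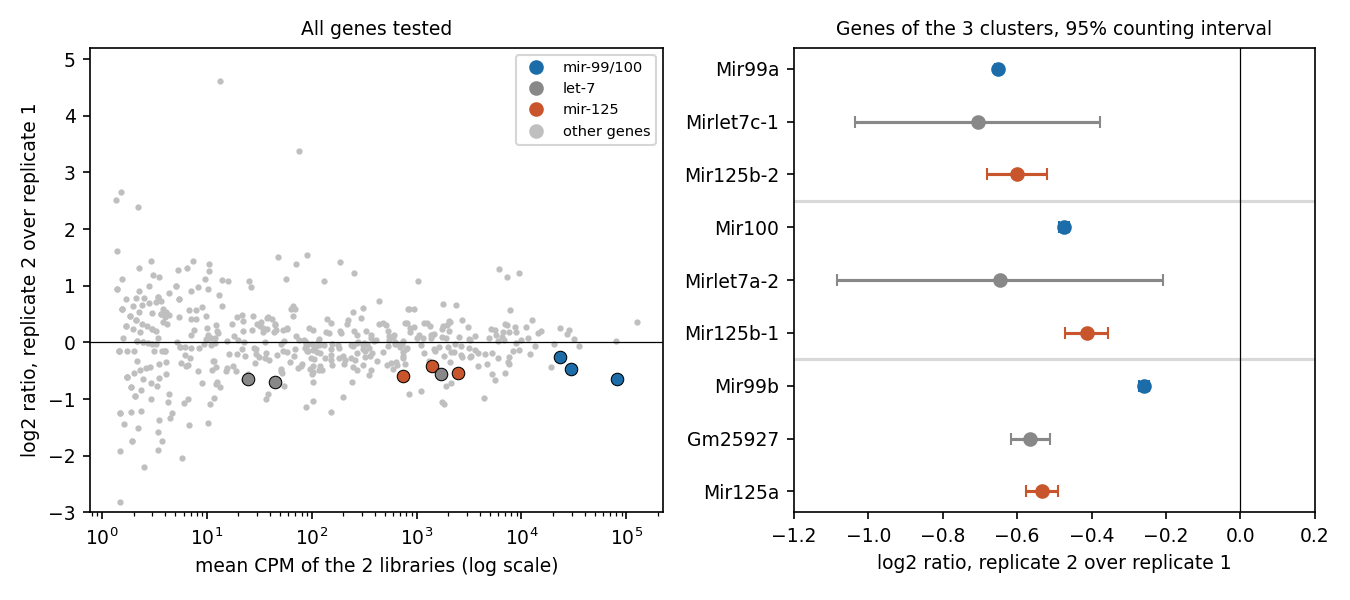
Log2 ratio of replicate 2 over replicate 1 (TMM scaling) against mean CPM (log axis) for all 485 genes tested (left), and for the 9 genes of the 3 clusters with 95% counting intervals (right). All 9 lie below 0, and Mir99b, at -0.26, lies apart from Gm25927 and Mir125a of its cluster.

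Relatives of the family were counted too. Mir351, a gene of the X chromosome, has the seed of mir-125 in its 5p arm.
miR-351-5p: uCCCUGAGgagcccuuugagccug
It had 2384 and 2113 CPM (2248 ± 192, SD, n = 2), within the range of Mir125a. Of all counted reads from genes with this seed, Mir351 held 30.5% in replicate 1 and 35.6% in replicate 2, Mir125a 37.6% and 34.2%, Mir125b-1 20.5% and 20.2%, and Mir125b-2 11.4% and 9.94%. Its log2 ratio between the pools was -0.17 (called lower). Mir6367 and Mir6394 had 0 reads in both libraries, where 3 reads would be 0.910 CPM in replicate 1 and 0.815 CPM in replicate 2. All counted genes with the seed CCCUGAG held 0.783% and 0.593% of the gene-assigned reads, and the 3 genes with the seed ACCCGUA had 20.3 and 18.4 times their reads. As the counts of Mir125b-1 and Mir125b-2 are lower limits, these factors are upper limits. The shares of Mir351 and Mir125a among the reads of these genes are upper limits as well. A gene's count does not separate its arms, and the seed stands in 1 arm of each gene. The shares and factors are hence of gene reads and give no limit for reads with the seed.

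Mir10a and Mir10b, which lie in the Hox clusters, are relatives of mir-99/100 with a seed shifted by an added base.
miR-10a-5p: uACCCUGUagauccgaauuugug
miR-10b-5p: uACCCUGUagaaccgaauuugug
Mir10a had 83.4 and 176 CPM and Mir10b 46.1 and 134 CPM. They were higher in replicate 2, by 2.12 times (counting interval 1.84 to 2.44) and 2.90 times (2.42 to 3.48), the direction opposite to that of the 6 members. Both were called, where 23.1% of all genes were called higher.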

How the data were processed

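Read counts per microRNA gene were deposited by the authors as 1 file per library, from reads aligned to mm10 and counted on GENCODE M4, per the file descriptions. Aligner and trimming are not given in the sources at hand. Of 3 unnamed count columns the first, the sum of the other 2, was used. Symbols and positions are from GENCODE M21 on the same build (1894 of 1973 identifiers matched), which can differ from M4 in a gene's ends. Sequences matched by symbol for all 6 members, and runs were compared between annotated microRNA hairpins, not across the genome, with no genome sequence used. The hairpin sequences of the mir-125b genes are not reported here.

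Libraries were scaled by TMM (edgeR 4.0.16, R 4.3.3). Log2 ratios and within-library ratios used 0.5 added reads and 95% counting intervals. The exact binomial test took genes with at least 10 reads in sum, with Benjamini-Hochberg adjustment at 0.05 (scipy 1.17.1). It was run on simulated Poisson counts, which hold no variation between pools beyond the genes changed on purpose. That run cannot show how the test behaves where pools vary. The test takes reads as independent. DESeq2 1.42.0 gave alternative size factors. Named genes were the 6 members, the let-7 row of each cluster, other genes with a member's 5p seed, Mir10a and Mir10b, the genes next to each member in rank, and the 3 genes of mean CPM 1000 or more with the closest ratio between pools. Cell type markers were named with their lists after that. The members and lists were chosen with earlier results of these data known.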

Additional observations from a re-analysis of the deposited data

Results flagged for a closer look

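Reads outside the gene counts were numerous. Multiply mapped reads, which are in no gene count and serve only as an alternative denominator, numbered 2412710 in replicate 1 and 2775444 in replicate 2. How many of them are reads of miR-125b-5p or of another shared arm was not tested, because the row names no gene.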

How the results depend on the processing

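With multiply mapped reads added to the denominator the family held 7.97% of the reads, the mir-99/100 genes 7.70% and the mir-125 genes 0.266%, because the denominator is larger. Without replicate 1 or 2 in turn, the family share ranged from 11.3% to 16.5%, that of mir-99/100 from 10.9% to 15.9% and that of mir-125 from 0.381% to 0.544%. The log2 ratios within clusters moved by less than their SD or counting interval with no added reads and with thinning of the deeper library. The 0.5 added reads are small beside member counts of 2169 or more, and thinning a library leaves its ratios the same on average. The second count column gives the same mir-99/100 to mir-125 ratios by construction, since it holds all reads of the members. With 2 replicates leaving out 1 always moves a mean by less than the SD. None of these settings hence bears on the stability of the ratios. All 6 members were called lower in replicate 2 under DESeq2 size factors, total counts, no filter, a minimum of 100 reads, the second count column, leaving out Mir335, and TMM without the 6 genes, an alternative chosen after seeing the data. DESeq2 size factors shifted the log2 ratios by 0.03 and gave 115 genes lower and 120 higher over all genes, against 129 and 112 with TMM. No paired analysis was possible because there is 1 group. The 2 libraries limit what can be said of the spread, and the let-7 rows with 71 to 182 reads have the widest counting intervals.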

Other observations

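The genes next to each member in rank show how closely its place among the counted reads is fixed by these libraries. Mir99a, rank 2, stood between Mir335 (127345 ± 22571 CPM, SD, n = 2), with which its range did not overlap, and Mir17 (80045 ± 994 CPM), with which it did. Mir100 overlapped with Mir20a above it and Mir126a below it, and Mir99b with Mir92b above it, while Mir93 below it (20207 ± 294 CPM) did not overlap. Mir125a stood between Gm24083, whose reads all lay in the third count column, and Mir183, Mir125b-1 between Mir341 and Mir188, and Mir125b-2 between Mir350 and Mir494, and the ranges overlapped in each of these pairs. The order of the mir-125 genes and these neighbours is hence within the spread of the replicates. For Mir125b-1 and Mir125b-2 the ranks are of counted reads only, and reads that match both loci are in no gene count. How far those reads would move the ranks was not tested.

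Among 102 genes outside the family with a mean CPM of 1000 or more, the 3 whose log2 ratio between the pools came closest to the family median of -0.50 were Mir181c (-0.54), Mir135b (-0.55) and Gm25927 (-0.57), the last being the row that lies across Mirlet7e in the chromosome 17 cluster. Likeness here is the distance between single values from 2 libraries and says nothing of shared control.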
